A study of Marchantia polymorpha with 18 samples.

Results

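Lobes of wounded Marchantia polymorpha thalli that had themselves been left untouched (systemic tissue) were compared with thallus of plants that had not been wounded (intact), with wild type (WT) and the mutant Mpglr-9 pooled. Marchantia polymorpha is a liverwort, and its thallus is a flat body of photosynthetic lobes. Mpglr-9 carries a CRISPR-Cas deletion in MpGLR, which encodes a glutamate receptor-like channel, and the labels name 1 mutant line. The plants were 28 days old and grown on soil. On each wounded plant 2 lobes were crushed with serrated forceps, and tissue was taken 4 h later, when the intact plants were sampled too. The comparison used every library of those conditions, which made 12 of the 18 libraries of the study: 3 of WT untouched lobes, 3 of Mpglr-9 untouched lobes, 3 of WT intact plants and 3 of Mpglr-9 intact plants. The 6 libraries of crushed lobes served only as a yardstick. Each library pooled tissue of 9 plants, so that the spread between libraries is a spread between pools.

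In flowering plants, crushing or cutting a leaf triggers electrical and calcium signals that reach undamaged leaves, and glutamate receptor-like channels of Arabidopsis are needed for their spread. There, the signals lead to the synthesis of jasmonates, lipid hormones (oxylipins) that are sensed by the receptor COI1 and that release the repression exerted by JAZ proteins. Marchantia has the COI1 and JAZ parts of this pathway and uses the jasmonate precursor dinor-12-oxo-phytodienoic acid as the ligand. Setting untouched lobes against intact plants asks whether a wound changes gene expression in tissue that was not wounded itself.

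The 6 libraries of untouched lobes held 18558026 to 28396396 counts and the 6 of intact plants 22479343 to 30690205 counts. At these depths 3 counts, taken as the limit for a gene without a read, corresponded to 0.105 to 0.160 CPM (read counts scaled to a common library size) in untouched lobes and to 0.0974 to 0.130 CPM in intact plants, counting error only. MpRBCS, the gene of the small subunit of Rubisco, was measured at 102 to 113 CPM in untouched lobes and at 92.8 to 114 CPM in intact plants, and MpGUN5, of chlorophyll synthesis, at 602 to 699 CPM in untouched lobes and at 628 to 687 CPM in intact plants, so both tissues carried the marker genes of green thallus. The first principal component of the 12 libraries held 41.5% of the variance and set the replicate number apart first: the 4 libraries numbered 3 lay at 17.1 to 37.9 on it and the other 8 at -31.4 to 7.22. Among those 8, the 4 libraries of untouched lobes lay at -16.5 to 7.22 and the 4 of intact plants at -31.4 to -17.9, without overlap, whereas in the libraries numbered 3 untouched lobes lay at 17.1 and 22.5 and intact plants at 30.2 and 37.9. On the second component (10.7% of the variance) untouched lobes lay above intact plants of the same genotype and number in 6 of 6 comparisons. In a fit with a term for them, 1234 genes (9.25% of those tested) differed between the libraries numbered 3 and the others, 685 higher and 549 lower. The labels do not say what the number marks, so results that turn on these libraries are given with and without them.

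Of 13337 genes with enough counts to test, none was called in untouched lobes against intact plants (0%, edgeR quasi-likelihood test with genotype as a covariate, Benjamini-Hochberg adjusted p under 0.05). At an unadjusted p under 0.05 there were 1046 genes (7.84%), 466 higher (3.49%) and 580 lower (4.35%) in untouched lobes. The 6 libraries of untouched lobes all lay above the 6 intact ones for 22 genes (0.165%) and all below them for 23 genes (0.172%), which made 45 genes (0.337%) without overlap. In crushed lobes the same plants gave 4379 genes that rose (32.6% of 13450) and 4539 that fell (33.7%). Other tools differed on the count in untouched lobes: limma-voom called 0 genes and DESeq2 called 32, of which 11 were higher and 21 lower. Leaving out WT intact library 1 gave 2 calls, MpATG8b and Mp6g11070, and leaving out any other single library gave 0. Without the 4 libraries numbered 3 there were 3 calls (0.0225% of 13345), and with a term for those libraries there were 39 (0.292%), 11 higher and 28 lower. More genes were called with the replicate number as a block, with counts given under the dependence on processing. The main fit did not treat same-numbered libraries as pairs, although the correlations of their deviations were all positive, from 0.0229 to 0.480. The 0 calls of edgeR thus belong to the fit with genotype as the only covariate.

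The median gene differed by 0.05 in size on the log2 scale, and the 95% interval of the difference lay between -1 and 1 for 12487 genes (93.6%). Among the 7770 genes with a mean of at least 20 CPM the interval lay within these bounds for 99.7% and between -0.5 and 0.5 for 98.6%. Below 1 CPM only 53.4% of 1222 genes had an interval between -1 and 1, so a doubling of a rarely read gene was often not detectable at this depth. The estimate itself exceeded 1 in size for 62 genes, 13 higher and 49 lower, and 34 of them had a mean below 1 CPM.

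**Figure D1:**
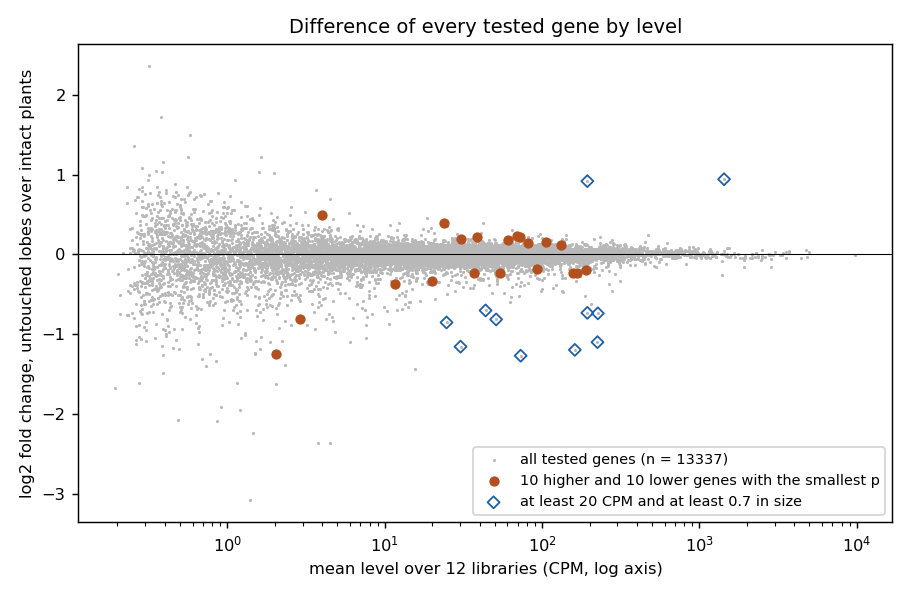
Each grey point is 1 of 13337 tested genes, placed by its mean level over the 12 libraries (CPM, log axis) and by its log2 fold change in untouched lobes over intact plants (fit of 12 libraries). Filled points are the 10 higher and 10 lower genes with the smallest p, and open diamonds are the 11 genes of at least 20 CPM with a difference of at least 0.7 in size. The cloud narrows with level, and the genes with the smallest p lie mostly within 0.5 of 0.

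The smallest p belonged to MpATG8b, a gene of the ATG8 family of ubiquitin-like proteins that mark the membranes of autophagosomes. It had 147, 144 and 150 CPM in WT untouched lobes and 137, 144 and 144 CPM in Mpglr-9 untouched lobes, against 159, 168 and 188 CPM in WT intact plants and 160, 173 and 170 CPM in Mpglr-9 intact plants. Every library of untouched lobes was below every intact one. The log2 fold change was -0.23 ± 0.04 (SE), with an adjusted p = 0.205 in edgeR. In whole lobes, fewer cells of a type and less RNA per cell cannot be told apart. DESeq2 called it (adjusted p = 0.000292), and over 22 alternatives its adjusted p ran from 0.000292 to 0.546 while its log2 fold change stayed between -0.26 and -0.20.

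The other 9 lower genes with the smallest p had log2 fold changes from -1.24 to -0.18, and of these only MpGID1L6 has a symbol. MpGID1L6, named for its likeness to the gibberellin receptor GID1 of flowering plants, had 8.73 to 12.3 CPM in untouched lobes (median 9.82) and 11.3 to 14.2 CPM in intact plants (median 13.3), with overlapping ranges. Its log2 fold change was -0.38 ± 0.08 (SE, adjusted p = 0.242, edgeR), whereas in crushed lobes it rose by 3.28. Mp6g14420 was at 166 to 187 CPM in untouched lobes and at 193 to 214 CPM in intact plants, with no overlap. Mp3g23410 had 30.5 to 35.4 CPM in untouched lobes and 37.2 to 41.9 CPM in intact plants, again with no overlap. Mp1g00280 had the largest difference of the 10, -1.24 ± 0.25, at 0.937 to 1.62 CPM in untouched lobes and 1.88 to 6.31 CPM in intact plants. Its highest value came from Mpglr-9 intact library 3, and without the libraries numbered 3 its log2 fold change was -0.93.

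Among the 10 higher genes the log2 fold changes ran from 0.12 to 0.49. Mp1g28040 had 24.8, 24.3 and 27.0 CPM in WT untouched lobes and 32.0, 28.6 and 25.4 CPM in Mpglr-9 untouched lobes, against 22.6, 17.4 and 22.01 CPM in WT intact plants and 21.2, 19.3 and 20.3 CPM in Mpglr-9 intact plants. The groups did not overlap, and the log2 fold change was 0.40 ± 0.07 (SE, adjusted p = 0.242, edgeR). Mp5g12930 lay at 73.0 to 78.6 CPM in untouched lobes and at 56.6 to 70.4 CPM in intact plants (0.24 ± 0.05), without overlap. Mp2g05340 had 82.5 to 87.3 CPM in untouched lobes and 74.8 to 78.9 CPM in intact plants (0.14 ± 0.03), also without overlap. Of the named genes among the 10, MpPLATZ1 (a zinc-binding protein family of plants) differed by 0.12 ± 0.03 and MpPAPK1.1 by 0.16 ± 0.04, and for both the ranges overlapped. DESeq2 called all 20 of these genes, and 11 of the 20 were among the 45 genes whose groups did not overlap.

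**Figure D2:**
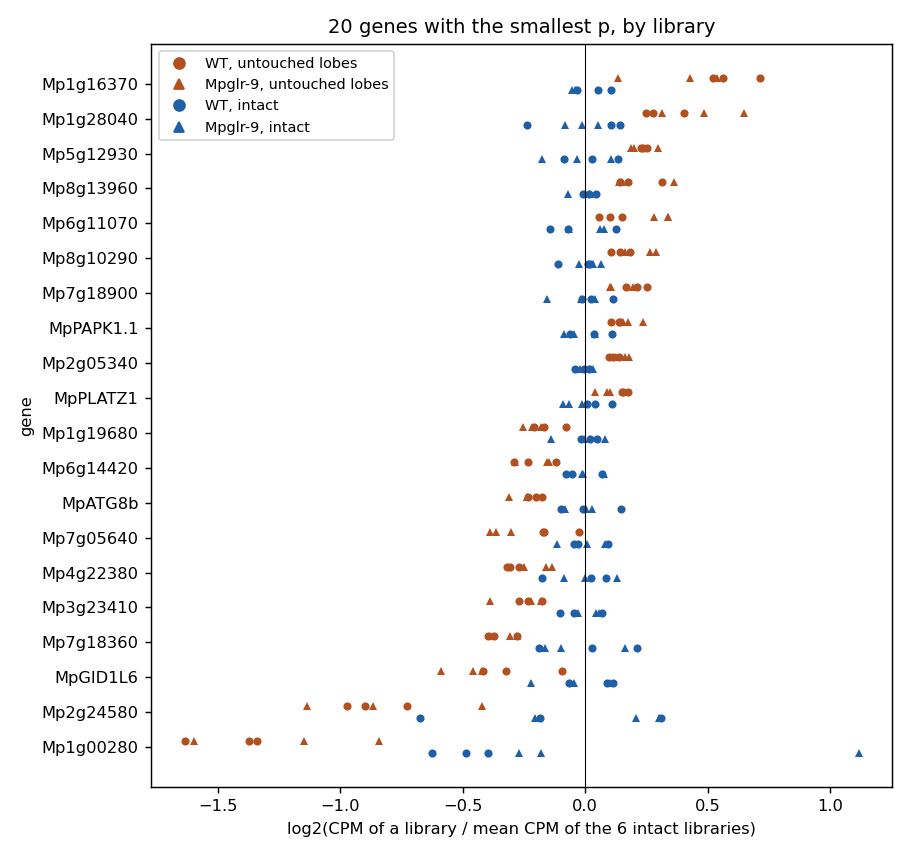
Each point is 1 library, placed by log2 of its CPM over the mean CPM of the 6 intact libraries, for the 10 higher and 10 lower genes with the smallest p (rows). Libraries of untouched lobes are drawn above those of intact plants in each row, circles for WT and triangles for Mpglr-9, and only Mp1g00280, Mp2g24580, MpGID1L6, Mp1g28040 and Mp1g16370 have libraries of untouched lobes more than 0.4 from 0.

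The genotypes were also tested alone. In WT untouched lobes against WT intact plants no gene was called in edgeR and 526 (3.94%) had an unadjusted p under 0.05. In Mpglr-9 untouched lobes against Mpglr-9 intact plants no gene was called in edgeR, 1116 (8.37%) had an unadjusted p under 0.05, and DESeq2 called 27, of which 7 were higher and 20 lower. The difference between the genotypes in this contrast was tested directly: no gene was called and 636 (4.77%) had an unadjusted p under 0.05. Without the libraries numbered 3, the WT contrast gave 4 calls, all higher, and the test of the difference gave 1. The gene with the smallest p for the difference was Mp3g10510, at 0.24 ± 0.07 in WT and -0.21 ± 0.07 in Mpglr-9 (SE, adjusted p = 0.980, edgeR), and MpEXL7 had 0.14 ± 0.06 and -0.23 ± 0.06.

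A panel of 28 genes known from the crushed lobes of these plants was followed into the untouched lobes, and 25 of them had enough counts in the 12 libraries to be tested. In crushed lobes 21 of the 25 rose and 4 fell. In untouched lobes none was called, and 9 had a positive and the others a negative log2 fold change. At an unadjusted p under 0.05 there were 2, a bound that 7.84% of all tested genes met. For all 25 the 6 libraries of untouched lobes overlapped the 6 intact ones, as they did for all but 0.337% of tested genes. Of 24 panel genes that could be tested without the libraries numbered 3 none was called either. At an unadjusted p under 0.05 in edgeR, which 7.98% of all genes met in that fit, 5 were higher and 2 lower. The higher ones were MpLOX6 at 1.64, MpPKS/CHS21 at 0.76, MpPAL4 at 0.36, MpLOX4 at 0.35 and MpJAZ at 0.14 on the log2 scale, against 0.46, 0.31, 0.08, 0.10 and 0.08 over all 12 libraries. The 95% interval lay between -1 and 1 for 19 of them, and the exceptions were MpLOX6, MpLOX8, MpDIR39, MpWRKY7, MpBHLH4 and MpGST38, all rarely read outside crushed lobes. The other 3 panel genes were near 0 in both tissues: MpPPO31 had 0 to 0.179 CPM in untouched lobes, 66.6 to 182 CPM in crushed lobes and 0 to 1.20 CPM in intact plants. MpDIR61 had at most 0.0901 CPM in untouched lobes, at least 41.6 CPM in crushed lobes and at most 0.909 CPM in intact plants, and MpBHLH51 had at most 0.0901 CPM in untouched lobes, at least 10.7 CPM in crushed lobes and at most 0.227 CPM in intact plants.

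Among the oxylipin genes, MpLOX2, an abundant lipoxygenase gene, had 142 to 163 CPM in untouched lobes (median 151), 1623 to 2105 CPM in crushed lobes and 144 to 197 CPM in intact plants (median 156). Its log2 fold change was -0.08 ± 0.07 in untouched lobes, with a 95% interval from -0.23 to 0.06, and 3.51 ± 0.08 in crushed lobes. MpCYP74N2, of the allene oxide synthase family that acts after lipoxygenases, had 186 to 228 CPM in untouched lobes and 193 to 265 CPM in intact plants (-0.13 ± 0.08), and rose by 3.08 in crushed lobes. MpJAZ, the repressor gene of the pathway, had 34.4 to 41.9 CPM in untouched lobes (median 37.0), 157 to 210 CPM in crushed lobes and 32.8 to 37.7 CPM in intact plants (median 35.4). Its log2 fold change was 0.08 ± 0.05, with an interval from -0.02 to 0.18, and 2.39 ± 0.07 in crushed lobes. MpCOI1, the receptor gene, differed by -0.03 ± 0.03.

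Panel genes of phenolic and hormone metabolism also overlapped between the tissues, as all but 0.337% of tested genes did. Mp4CL2, which activates cinnamic acids for phenylpropanoid synthesis, lay at 136 to 152 CPM in untouched lobes, 1153 to 1577 CPM in crushed lobes and 139 to 158 CPM in intact plants (-0.04 ± 0.04). MpPPO42, a polyphenol oxidase gene, had 90.9 to 116 CPM in untouched lobes and 80.9 to 184 CPM in intact plants (-0.20 ± 0.17), and rose by 4.66 in crushed lobes. MpGH3A, of the family that joins amino acids to hormones, differed by 0.02 ± 0.06 in untouched lobes and by 3.46 ± 0.11 in crushed lobes. Of the 4 panel genes that fell in crushed lobes, MpH3.1d, a histone gene, differed by 0.11 ± 0.07 in untouched lobes and by -1.50 ± 0.13 in crushed lobes, and MpCHLD, of chlorophyll synthesis, by -0.01 ± 0.03 in untouched lobes and by -1.05 ± 0.09 in crushed lobes.

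**Figure D3:**
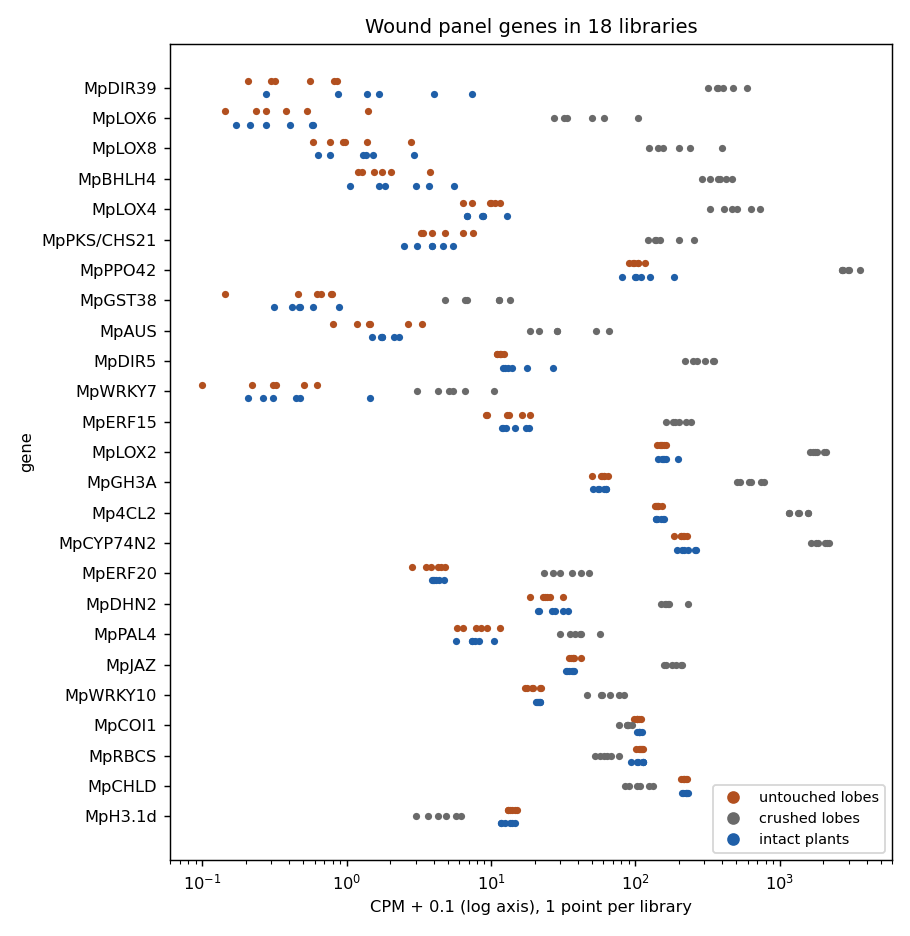
CPM + 0.1 (log axis) of the 25 tested panel genes in every library, with 6 libraries each of untouched lobes (upper point row), crushed lobes (middle) and intact plants (lower). For all 25 genes the untouched and intact libraries overlap, as for all but 0.337% of tested genes. Crushed lobes lie apart for most of the 25.

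MpDIR39, of the dirigent family that steers the coupling of phenolic radicals, was the panel gene with the largest difference. It had 0.453, 0.107 and 0.759 CPM in WT untouched lobes and 0.721, 0.200 and 0.219 CPM in Mpglr-9 untouched lobes, against 1.58, 3.94 and 7.24 CPM in WT intact plants and 0.178, 1.28 and 0.770 CPM in Mpglr-9 intact plants. In WT the libraries did not overlap, and in Mpglr-9 they did. The pooled log2 fold change was -2.25 ± 0.70 (SE, adjusted p = 0.536, edgeR), with -3.23 ± 0.83 in WT and -0.97 ± 0.89 in Mpglr-9, and the difference between the genotypes had an adjusted p = 0.98. In crushed lobes MpDIR39 reached 320 to 595 CPM. Its relative MpDIR5 had 10.8 to 12.1 CPM in untouched lobes and 12.02 to 26.7 CPM in intact plants (-0.46 ± 0.16), with its highest value in WT intact library 3, and -0.29 without the libraries numbered 3.

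Mp6g09000 and Mp2g18790, which have no symbol, showed the same order of tissues, and DESeq2 called both (adjusted p = 0.0324 each). Mp6g09000 had 0.139, 0.107 and 0.580 CPM in WT untouched lobes and 0.315, 0.0801 and 0.263 CPM in Mpglr-9 untouched lobes, against 1.79, 3.55 and 7.27 CPM in WT intact plants and 0.178, 1.85 and 0.513 CPM in Mpglr-9 intact plants. Its median in crushed lobes was 525 CPM. Mp2g18790 had 0.374 to 1.80 CPM in untouched lobes, 1.28 to 17.99 CPM in intact plants and a median of 691 CPM in crushed lobes. In edgeR the log2 fold changes in untouched lobes were -3.09 ± 0.73 and -2.36 ± 0.60, and over 22 alternatives the adjusted p of either gene ran from 0.0324 to 0.868. Both genes were named after their values were seen.

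To set the whole local wound response against the untouched lobes without sharing intact libraries, genes were chosen in the crushed lobes of 1 genotype and measured in the untouched lobes of the other. Of the 437 genes that rose at least 4-fold in WT crushed lobes, 324 could be tested. Their median log2 fold change in Mpglr-9 untouched lobes over Mpglr-9 intact plants was -0.03. In the WT crushed lobes, where the choice itself required a log2 fold change of at least 2, their median was 2.84. Of these 324 genes 145 (44.8%) lay above 0, and of all tested genes 50.6% did. Of the 426 genes that rose as much in Mpglr-9 crushed lobes, 317 could be tested in WT untouched lobes over WT intact plants, with a median of -0.08. Only 97 of these (30.6%) lay above 0, against 49.4% of all tested genes. At an unadjusted p under 0.05, 4 of the 317 were higher and 28 lower, against 259 higher and 267 lower of all 13337 tested genes. On log2(CPM + 0.5), the medians of the 3 WT libraries of untouched lobes against the mean of the WT intact libraries were -0.05, -0.09 and -0.08, and the WT intact libraries themselves lay at -0.07, -0.05 and 0.11. Without the libraries numbered 3 the median was 0.08 in Mpglr-9, so that its sign changed, and -0.01 in WT. In Mpglr-9, 11 of the 324 were higher and 15 lower at an unadjusted p under 0.05, against 503 and 613 of all 13337. With the rise set at 8-fold, 143 genes had a median of -0.21 in WT untouched lobes and 24 of them (16.8%) lay above 0, and the median was -0.09 without the libraries numbered 3. In Mpglr-9 untouched lobes the 8-fold choice also left 143 genes, with a median of -0.03, 48.3% of them above 0, and a median of 0.13 without the libraries numbered 3. Genes that had fallen at least 2-fold in crushed lobes had medians of -0.03 in Mpglr-9 and -0.01 in WT untouched lobes. In Mpglr-9, 256 of 649 (39.4%) lay above 0, and 8 were higher and 39 lower at an unadjusted p under 0.05. In WT, 282 of 604 (46.7%) lay above 0, with 17 higher and 18 lower. Without the libraries numbered 3 these medians were -0.04 in Mpglr-9 and -0.003 in WT.

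The genes were also read by 32 lists of families and processes. Over all tested genes 7.84% had an unadjusted p under 0.05 (3.49% higher, 4.35% lower), and 7.98% without the libraries numbered 3. No list had a called member in edgeR, and the list medians ran close to the 0.00 of all genes, with the exceptions given here. Lipoxygenases had a median of 0.00 over 15 tested members, with none at an unadjusted p under 0.05, whereas 9 of the 15 rose in crushed lobes. The lipoxygenase genes MpLOX6, MpLOX3 and MpLOX4 were higher at that bound without the libraries numbered 3, at 1.64, 0.58 and 0.35, and the list median was 0.03. Later oxylipin steps and fatty acid desaturases had 3 of 14 members at an unadjusted p under 0.05, all higher. They were MpFAD1, MpFAD3 and MpFAD9 of the desaturase family, and MpFAD1 had 145 to 158 CPM in untouched lobes and 136 to 145 CPM in intact plants without overlap (0.11 ± 0.03), while it fell by 0.65 in crushed lobes. Phenylpropanoid entry enzymes had 1 of 15 higher (MpC4H1, 0.09 ± 0.04) and a median of -0.02. They had 4 of 15 higher (MpPAL10, MpPAL-like2, MpPAL4 and MpC4H1) and a median of 0.11 without the libraries numbered 3. The later oxylipin steps then had 4 higher, and the chalcone synthase family with flavonoid genes had 7 higher and 2 lower of 49, against 4 higher and 3 lower over all 12 libraries.

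Among the regulators, of 12 tested WRKY genes 2 had a log2 fold change above 0, the median was -0.11, and MpWRKY8 and MpWRKY2 had an unadjusted p under 0.05 in edgeR. MpWRKY8 had 5.40 to 6.79 CPM in untouched lobes and 6.52 to 9.12 CPM in intact plants, a log2 fold change of -0.37 ± 0.10, and it rose by 0.40 in crushed lobes. Without the libraries numbered 3 the median of the WRKY list was -0.01, while MpWRKY8 (-0.28) and MpWRKY2 (-0.10) still met that bound. The AP2/ERF list had a median of -0.07 over 19 genes and the NAC list -0.06 over 8, each with 2 lower and 0 higher at that bound. Without the libraries numbered 3 these medians were -0.06 and -0.07, with 1 AP2/ERF gene and 2 NAC genes lower. Of 44 MYB genes 5 were higher and 1 lower at an unadjusted p under 0.05 (13.6%, against 7.84% of all tested genes). Without the libraries numbered 3 the MYB counts were 2 and 1. Over all 12 libraries Mp1R-MYB17 stood at 0.20 ± 0.05. In the list of pathogenesis-related proteins 1 of 14 was higher and 2 were lower, with a median of -0.28 and of 0.01 without the libraries numbered 3. Of 24 genes of the circadian clock and of light perception 1 was higher, the B-box gene MpBBX1 (0.11 ± 0.05), and 4 were lower. The lower ones were the cryptochrome gene MpCRY at -0.13 ± 0.04 and the B-box genes MpBBX3, MpBBX4 and MpBBX5. Without the libraries numbered 3, MpBBX1, MpCRY and MpBBX3 still met that bound, and MpBBX4 and MpBBX5 did not. Histones and cell-cycle genes, markers of dividing tissue, had a median of 0.00 over 49 genes, 1 of which was higher, and 39 of them fell in crushed lobes. Rhizoid genes (11 tested), reproductive genes (13) and genes of terpene synthesis (19) had medians of 0.03, 0.00 and 0.05.

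Families of secondary metabolism and detoxification differed in direction at an unadjusted p under 0.05 in edgeR. Polyphenol oxidases and glutathione S-transferases with redox enzymes had only higher members, and the other families given here had both. Of 64 glutathione S-transferases and redox enzymes 4 (6.25%, all genes 7.84%) were higher and 0 lower at an unadjusted p under 0.05 in edgeR. The largest was MpGST28, with 0.134 to 1.49 CPM in untouched lobes (median 0.932) and 0.110 to 0.560 CPM in intact plants (median 0.276), a log2 fold change of 1.498 ± 0.51, and MpGST29 had 6.31 to 10.5 CPM in untouched lobes and 5.26 to 6.67 CPM in intact plants (0.36 ± 0.12). Of 34 polyphenol oxidase genes 2 were higher: MpPPO20 had 57.8 to 86.8 CPM in untouched lobes and 44.1 to 65.6 CPM in intact plants (0.31 ± 0.12), and it rose by 4.37 in crushed lobes. Dirigent genes had 2 higher and 3 lower of 41 (12.2%) and class III peroxidases 1 higher and 4 lower of 103 (4.85%). Cytochrome P450 genes had 3 higher and 5 lower of 84 (9.52%). MpCYP821-like had 2.39 to 3.53 CPM in untouched lobes and 3.45 to 4.91 CPM in intact plants (-0.40 ± 0.13), and it rose by 3.94 in crushed lobes. Of 30 genes of 2-oxoglutarate-dependent oxygenases 2 were higher and 4 lower, and MpDOXC30 had 7.32 to 8.60 CPM in untouched lobes and 9.04 to 13.2 CPM in intact plants without overlap (-0.36 ± 0.10). Without the libraries numbered 3, glutathione S-transferases and redox enzymes had 9 higher and 0 lower, polyphenol oxidases 4 higher, dirigent genes 5 higher and 2 lower, and 2-oxoglutarate-dependent oxygenases 4 higher and 4 lower, while peroxidases had 2 higher and 5 lower and cytochrome P450 genes 2 higher and 2 lower. The dirigent median was -0.04 over all 12 libraries and 0.09 without those numbered 3, and none of these genes was called in either fit.

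Of 50 auxin genes 2 were higher and 4 lower at an unadjusted p under 0.05 (12%, against 7.84% of all tested genes). The auxin synthesis gene MpYUC2 had 17.2 to 27.5 CPM in untouched lobes and 16.5 to 20.04 CPM in intact plants (0.26 ± 0.09), and the auxin receptor gene MpTIR1 had 117 to 134 CPM in untouched lobes and 122 to 151 CPM in intact plants (-0.15 ± 0.06). The small auxin-up genes MpSAUR11 and MpSAUR13 differed by -0.63 ± 0.21 and by -1.10 ± 0.46, and by -0.41 and -0.67 without the libraries numbered 3. Calcium signalling genes had 0 of 6 at this bound, ion transport genes 1 of 27 (the potassium channel gene MpTPK2, 0.15 ± 0.07), and heat shock genes 1 of 6 (MpHSP90-1, 0.10 ± 0.03).

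**Figure D4:**
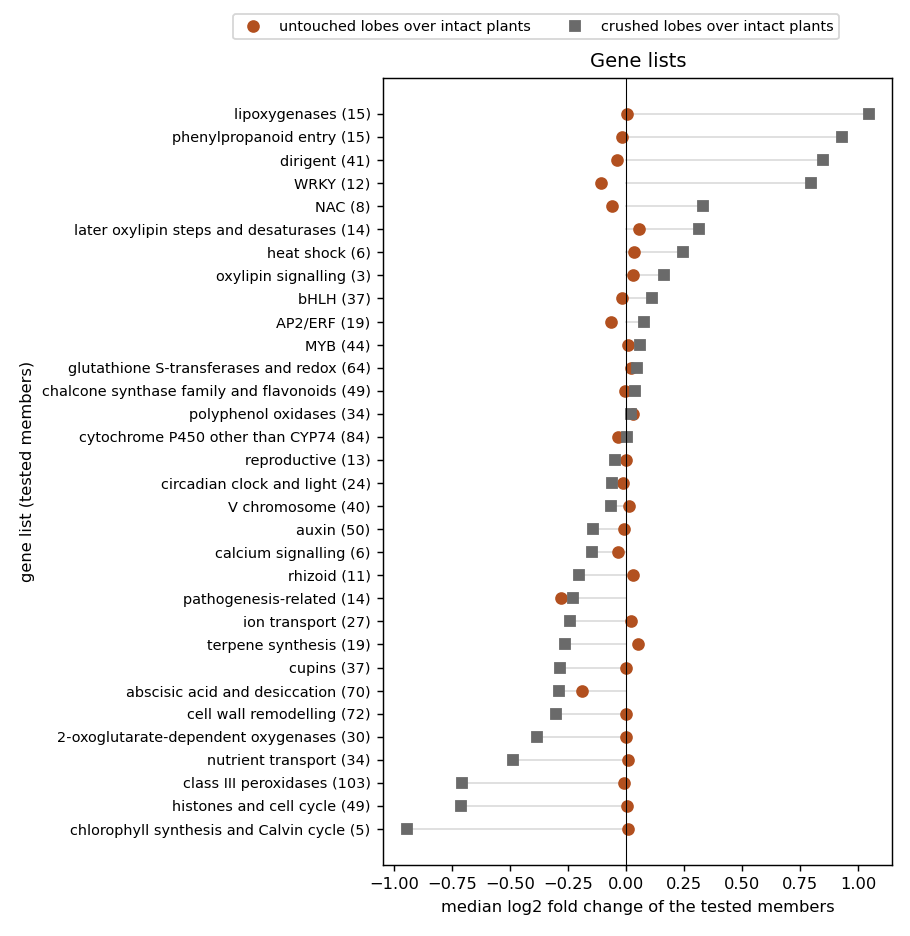
Median log2 fold change of the tested members of each of the 32 gene lists in untouched lobes over intact plants (circles) and in crushed lobes over intact plants (squares), with the number of tested members in brackets. The circles lie within 0.12 of 0 except for the pathogenesis-related list (-0.28) and the abscisic acid and desiccation list (-0.19), while the squares reach from -0.95 to 1.05.

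The list of abscisic acid and desiccation genes turned on the libraries numbered 3. Most of its members are LEA genes, whose proteins protect drying cells and which abscisic acid, the drought hormone, induces in Marchantia. Of 70 tested members 19 lay above 0 in untouched lobes, the median was -0.19, and 1 (MpLEA-like56, 0.11 ± 0.03) was higher at an unadjusted p under 0.05. In the fit with a term for the libraries numbered 3, 38 of the 70 were higher in those libraries and 1 was lower. Without these libraries the median was 0.11, 19 members were higher and 0 lower at an unadjusted p under 0.05, a bound that 1065 of all genes (7.98%) met in that fit, and none of the 19 was called in edgeR.

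MpLEA1 had 4.22, 7.05 and 14.1 CPM in WT untouched lobes and 3.42, 1.36 and 8.62 CPM in Mpglr-9 untouched lobes, against 0.946, 0.0866 and 32.5 CPM in WT intact plants and 0.748, 0.339 and 13.6 CPM in Mpglr-9 intact plants, each in the order of the library numbers. In libraries 1 and 2 every value of untouched lobes was above every intact value, and in libraries 3 both intact values were above those of untouched lobes of the same genotype. MpLEAL1 had 25.3, 43.2 and 59.1 CPM in WT untouched lobes and 22.6, 12.3 and 42.7 CPM in Mpglr-9 untouched lobes, against 9.14, 2.08 and 117 CPM in WT intact plants and 8.90, 4.45 and 56.9 CPM in Mpglr-9 intact plants. Of 58 tested LEA genes, 35 had at least 2 times as much in intact libraries 3 as in intact libraries 1 and 2 (group means), and 22 did in untouched lobes. In libraries 1 and 2 untouched lobes had at least 2 times the intact level for 23 genes, and in libraries 3 at most 0.5 times the intact level for 22 genes. The summed level of the LEA genes was 1211 to 1446 CPM in untouched lobes and 1154 to 1834 CPM in intact plants.

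MpGCAM1, a MYB gene known to be needed for gemma cups, showed the same order. It had 4.63, 9.83 and 9.11 CPM in WT untouched lobes and 7.12, 5.41 and 5.73 CPM in Mpglr-9 untouched lobes, against 3.05, 1.99 and 11.2 CPM in WT intact plants and 2.78, 3.13 and 6.86 CPM in Mpglr-9 intact plants. Its log2 fold change was 0.52 ± 0.42 over all 12 libraries and 1.27 without the libraries numbered 3 (adjusted p = 0.136, edgeR). The 3 genes called without those libraries have no symbol. Mp2g01350 had 1.08 there and 0.32 ± 0.41 over all libraries, Mp6g09300 had -0.98 and -1.44 ± 0.48, and Mp7g17120 had -0.35 and -0.30 ± 0.11. Their adjusted p without the libraries numbered 3 was 0.0235, 0.0206 and 0.0410. Over 22 alternatives the adjusted p ran from 0.0235 to 0.981 for Mp2g01350, from 0.0206 to 0.872 for Mp6g09300 and from 0.0096 to 0.905 for Mp7g17120.

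A few well expressed genes had larger differences beside a wide spread between libraries. Among genes of at least 20 CPM, 11 differed by at least 0.7 in size, a bound chosen after the values were seen, and 9 of them were lower in untouched lobes. MpKFB01_20, a gene of the kelch-repeat F-box family, had 58.8, 101 and 113 CPM in WT untouched lobes and 54.3, 83.8 and 176 CPM in Mpglr-9 untouched lobes, against 114, 201 and 297 CPM in WT intact plants and 140, 219 and 378 CPM in Mpglr-9 intact plants. The pooled log2 fold change was -1.20 ± 0.38 (SE, adjusted p = 0.536, edgeR) and -1.18 without the libraries numbered 3, and in crushed lobes the gene fell by 1.71. Mp1g03750 had 27.1, 44.8 and 50.4 CPM in WT untouched lobes and 23.9, 34.6 and 76.3 CPM in Mpglr-9 untouched lobes, against 43.4, 100 and 149 CPM in WT intact plants and 53.9, 91.7 and 181 CPM in Mpglr-9 intact plants, a log2 fold change of -1.27 ± 0.43. For both genes the 2 groups overlapped, while each untouched library lay below the intact library of the same genotype and number. Over 22 alternatives the adjusted p ran from 0.000724 to 0.872 for MpKFB01_20 and from 0.0139 to 0.872 for Mp1g03750. Mp2g20430 (-1.10 ± 0.41), Mp3g16340 (-0.74 ± 0.22) and Mp4g14980 (-0.73 ± 0.22) were lower in untouched lobes and fell by 1.47, 1.46 and 1.56 in crushed lobes.

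Mp2g23680 and Mp5g21020 were lower in untouched lobes, at -0.82 ± 0.24 and -0.70 ± 0.24, but rose by 1.29 and 1.13 in crushed lobes. Mp2g23680 had 34.8, 33.8 and 41.1 CPM in WT untouched lobes and 35.5, 31.4 and 44.7 CPM in Mpglr-9 untouched lobes, against 35.8, 55.7 and 89.8 CPM in WT intact plants and 51.8, 59.3 and 98.2 CPM in Mpglr-9 intact plants. The other 2 of the 9 lower genes were Mp5g02800 (-1.16 ± 0.37) and the dehydrin gene MpDHN3 (-0.85 ± 0.49), which stood at -0.20 without the libraries numbered 3. The 2 genes that were higher both had their lowest value of untouched lobes in WT library 2, and whether they are near-identical copies that share reads was not tested, so they may not be separate measurements. MpVg01240 on the V chromosome had 832 to 2523 CPM in untouched lobes and 686 to 1507 CPM in intact plants (0.94 ± 0.30), and Mp6g09310 had 111 to 325 CPM in untouched lobes and 102 to 189 CPM in intact plants (0.92 ± 0.28). Without a term for the replicate number, neither edgeR nor DESeq2 called any of the 11 over all 12 libraries.

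**Figure D5:**
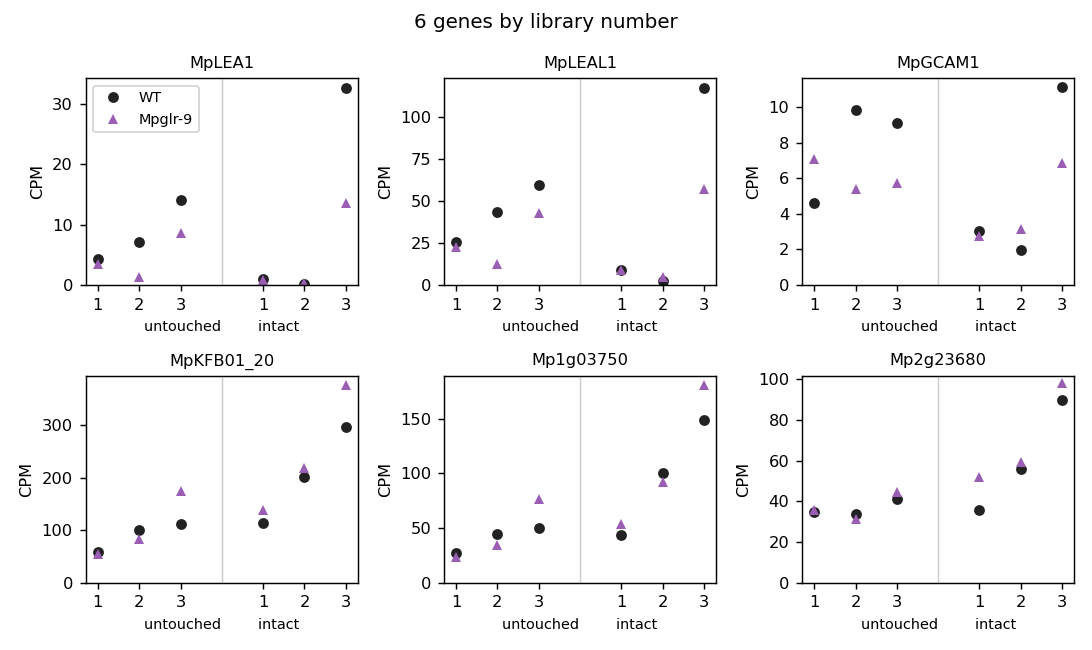
CPM of 6 genes by library number (1, 2, 3), with untouched lobes left and intact plants right in each panel, circles for WT and triangles for Mpglr-9. MpLEA1 and MpLEAL1 reach 32.5 and 117 CPM in WT intact library 3, and MpKFB01_20, Mp1g03750 and Mp2g23680 have their highest values in the intact libraries 3.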

How the data were processed

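Libraries of poly-A selected RNA were sequenced as paired reads of 150 bases, per the labels' protocols. HISAT2 and HTSeq made the values, per the submitters' processing notes; neither versions nor the genome build nor the strandedness of counting is stated there, so reads of overlapping genes and of near-identical copies cannot be told apart and no coordinates are given. The authors deposited raw read counts per gene for 19355 genes. Symbols came from the RefSeq gene table of assembly MpTak2_v7.1, matched by locus number (17384 identifiers, 3091 with a symbol). MpGLR was not analysed here, so the genotype labels were not checked by it.

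The deposited counts of the 12 libraries were filtered with filterByExpr by group (13337 genes left), scaled with TMM and fitted with edgeR 4.0.16 in R 4.3.3 (quasi-likelihood, robust, genotype plus tissue, two-sided); contrasts within a genotype and the genotype difference used group means. SE is the log2 fold change divided by the square root of F, and intervals are 95%. Crushed lobes were fitted in all 18 libraries (13450 genes), and CPM use scaled sizes of the 18. The pooled fit was tested on simulated counts without an effect of genotype or replicate number. That test does not bear on calls that depend on the number. DESeq2 1.42.0 and limma 3.58.1 were alternatives, with another scaling, no filter, blocks by replicate number, and each library left out; the 2 alternatives on libraries numbered 3 were added after the data were seen. Named genes are the 10 higher and 10 lower genes with the smallest p and at least 1 CPM, the member of each list with the smallest p, and the panel. Members and lists were chosen with earlier results of these data known. No 2 libraries of a group agreed within sampling noise. Same-numbered libraries were not treated as pairs in the main fit.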

Additional observations from a re-analysis of the deposited data

Results flagged for a closer look

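For 14 of 150 sets of 6 libraries (75 named genes, each in untouched lobes and in intact plants) the highest or lowest library stood apart from the other 5 by Dixon's criterion, which chance meets in about 1 set of 20. In untouched lobes the outlying library was Mpglr-9 library 1 for MpC4H1 (299 CPM), MpLOX6 (1.31 CPM), MpLOX8 (2.70 CPM) and MpBHLH4 (3.65 CPM). It was Mpglr-9 library 2 for MpNAC1 (6.05 CPM) and Mpglr-9 library 3 for MpCRY (185 CPM). In intact plants it was Mpglr-9 library 3 for Mp1g00280 (6.31 CPM), MpSAUR11 (4.44 CPM), MpDOXC30 (13.2 CPM) and MpWRKY7 (1.36 CPM), and Mpglr-9 library 2 for MpNPF35 (38.3 CPM). WT intact library 3 stood apart for MpLOX2 (197 CPM) and MpLOX4 (12.7 CPM), and WT intact library 1 for MpPPO34 (0.630 CPM).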

How the results depend on the processing

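The pooled comparison had 0 calls with upper-quartile scaling, without the filter, without robust dispersion, in the fit of 18 libraries and in limma-voom. DESeq2 gave 32 calls pooled and 27 in Mpglr-9, leaving out 1 library at a time 0 to 2 pooled and 0 to 0 in WT, in Mpglr-9 and for the genotype difference. Without the libraries numbered 3 there were 3 calls pooled, 4 in WT and 1 for the genotype difference, and a term for them gave 39 pooled and, in Mpglr-9, 17 that were all lower. The main fit did not treat same-numbered libraries as pairs, and the labels do not say whether they are. The correlations of same-numbered deviations were all positive, from 0.0229 to 0.480, with 4 of 6 above 0.1. Of the untouched libraries 3 of 6, and of the intact libraries 4 of 6, correlated best with their own number. With the replicate number as a block there were 79 calls pooled (19 higher, 60 lower), 4 in WT and 36 in Mpglr-9; with the block within genotype there were 64, 8 and 24. The block also called 6 of the 11 well expressed genes with the largest differences (MpKFB01_20, Mp1g03750, Mp5g02800, Mp2g20430, Mp3g16340 and Mp4g14980, adjusted p from 0.00895 to 0.0380). The cause of these differences was not tested. With the stricter choice of wound genes the medians were -0.21 and -0.14 for those that rose and fell in Mpglr-9 crushed lobes (measured in WT), and -0.03 and -0.081 for those that rose and fell in WT crushed lobes (measured in Mpglr-9). Of 75 named genes over 22 alternatives, 18 of 1649 values changed sign, none of them called, and 20 genes were called under at least 1 alternative. Depth limits the rarely read genes.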

Other observations

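Among the genes whose 6 libraries of untouched lobes did not overlap the 6 intact ones (0.337% of all tested), 4 with symbols belong to no result above; they were named after their values were seen, and edgeR called none of them. MpADT2, named for arogenate dehydratase, the last enzyme of phenylalanine synthesis, had 68.6, 67.0 and 66.6 CPM in WT untouched lobes and 67.1, 70.9 and 64.4 CPM in Mpglr-9 untouched lobes, against 59.9, 63.5 and 60.6 CPM in WT intact plants and 63.9, 57.1 and 61.4 CPM in Mpglr-9 intact plants. Its log2 fold change was 0.15 ± 0.04 in untouched lobes (SE) and 0.94 ± 0.04 in crushed lobes. MpATXR13 was lower in untouched lobes, at 1.02 to 1.81 CPM, against 1.99 to 2.86 CPM in intact plants (-0.64 ± 0.18), and in crushed lobes it fell by 1.07. MpALFIN2 had 6.93 to 8.48 CPM in untouched lobes and 8.63 to 9.64 CPM in intact plants (-0.22 ± 0.07). MpGRAS8 had 9.79 to 11.1 CPM in untouched lobes and 11.2 to 12.9 CPM in intact plants (-0.19 ± 0.07).

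Of the genes called with a term for the libraries numbered 3, Mp6g01440 had the largest positive value. It had 24.9, 25.3 and 19.4 CPM in WT untouched lobes and 23.4, 20.8 and 15.4 CPM in Mpglr-9 untouched lobes, against 18.9, 15.6 and 15.5 CPM in WT intact plants and 17.9, 13.9 and 12.4 CPM in Mpglr-9 intact plants, with overlap. Its log2 fold change was 0.45 ± 0.12 (SE), with an adjusted p = 0.0331 with the term and 0.438 without it in edgeR, and from 0.00424 to 0.868 over 22 alternatives. Mp6g01440 rose by 2.10 in crushed lobes.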
